A study of Mus musculus with 58 samples.

Results

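The autosomal imprinted genes Sfmbt2, Jade1 (also named Phf17), Gab1, Slc38a4 and Smoc1, were followed for acetylation of histone H3 at lysine 27 (H3K27ac) in full-grown mouse oocytes. They were chosen by name, as genes imprinted through H3K27me3 of maternal origin, and each was read over 1 fixed interval of the mm9 build that holds the gene with its flanks. All 5 intervals were found in both tracks, and together they made up 745 kb, or 149 of 527783 windows of 5 kb on the autosomes and X. The series comprises 58 samples of oocytes, embryos, sperm and embryonic stem cells, of which 4 were used here. The control group is labelled Setd2+/- and the other group Setd2-/-, which the series' design describes as a maternal knockout of the histone methyltransferase gene Setd2. Both groups were full-grown oocytes, with a stated age of 8 weeks for the females, and H3K27ac was profiled by STAR ChIP-seq, a chromatin immunoprecipitation protocol for few cells. How Setd2 was deleted, in which strain and in how many animals is not stated in the labels used here. Each group had 2 replicates, which the authors merged into 1 track, so every value below belongs to a pool, no spread between replicates could be measured and no test was made.

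H3K27ac marks active promoters and enhancers. The same lysine can instead carry H3K27me3, placed by Polycomb repressive complex 2, and a single lysine cannot carry both marks at once. SETD2 places H3K36me3 along transcribed genes. In the form of imprinting called non-canonical, H3K27me3 laid down in the growing oocyte keeps the maternal allele silent in the early embryo, so that the paternal allele alone is expressed, without the DNA methylation of classical imprinted genes. Sfmbt2, Jade1, Gab1, Slc38a4 and Smoc1 have been named as examples, and whether each also carries DNA methylation was not examined here. H3K27me3 itself was not analysed here, so the label of the set was not checked, and markers of oocytes were not checked because no gene annotation of mm9 was used.

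The sequences before the gene starts are shown because they lie at annotated starts of these genes and differ in their CG content. RefSeq's promoter table (GRCm38.p6) held 4 of the 5 genes, with 2 starts for Sfmbt2, 4 for Jade1, 2 for Gab1 and 3 for Slc38a4. The 250 bases before the outermost start of each are printed 5′ to 3′ on the strand of the gene, with every CG dinucleotide in capitals. The other starts were not measured, and which start is used in oocytes was not examined. They lie at chr2:10370201-10370450 (plus strand) for Sfmbt2, chr3:41555484-41555733 (plus strand) for Jade1, chr8:80880520-80880769 (minus strand) for Gab1 and chr15:97055957-97056206 (minus strand) for Slc38a4. These positions are of another build than the tracks and were not carried over to mm9, so no H3K27ac value is given for them.
Sfmbt2: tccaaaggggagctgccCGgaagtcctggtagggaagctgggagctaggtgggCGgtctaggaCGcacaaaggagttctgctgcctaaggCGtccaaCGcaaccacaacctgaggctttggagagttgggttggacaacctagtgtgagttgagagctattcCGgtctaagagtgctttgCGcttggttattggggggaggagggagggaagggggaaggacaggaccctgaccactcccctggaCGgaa
Jade1: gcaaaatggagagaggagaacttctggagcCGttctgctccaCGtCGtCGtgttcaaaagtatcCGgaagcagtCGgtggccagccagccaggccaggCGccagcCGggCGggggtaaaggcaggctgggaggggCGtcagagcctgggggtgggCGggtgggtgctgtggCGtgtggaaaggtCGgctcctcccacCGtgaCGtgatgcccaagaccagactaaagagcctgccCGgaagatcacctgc
Gab1: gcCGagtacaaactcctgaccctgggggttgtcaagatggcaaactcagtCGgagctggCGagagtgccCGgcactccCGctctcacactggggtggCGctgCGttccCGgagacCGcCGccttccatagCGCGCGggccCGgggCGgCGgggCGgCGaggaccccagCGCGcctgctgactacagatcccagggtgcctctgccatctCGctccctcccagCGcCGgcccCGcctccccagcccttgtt
Slc38a4: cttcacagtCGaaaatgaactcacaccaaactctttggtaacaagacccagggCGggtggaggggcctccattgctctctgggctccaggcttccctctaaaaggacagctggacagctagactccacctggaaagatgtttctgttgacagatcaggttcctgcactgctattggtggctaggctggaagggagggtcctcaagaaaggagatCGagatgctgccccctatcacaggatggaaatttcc
The Gab1 sequence held 24 CG and the Jade1 sequence 16, whereas the Sfmbt2 sequence held 8 and the Slc38a4 sequence 3. Among the outermost starts of 27025 genes the median was 6 CG in 250 bases, and 11.7%, 25.5%, 43.4% and 70.4% of them held at least as many CG as Gab1, Jade1, Sfmbt2 and Slc38a4, in that order. The letters searched were CG, which read the same on both strands. At least 1 CG was present in 91.7% of these sequences.

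In the control pool all 5 loci were poorer in H3K27ac than the autosomal mean of 0.374 RPKM, reads per kb scaled to library size. Sfmbt2 was the poorest at 0.0332 RPKM, followed by Smoc1 at 0.0472 RPKM, Gab1 at 0.0863 RPKM, Slc38a4 at 0.0909 RPKM and Jade1 at 0.289 RPKM. In the knockout pool all 5 were higher, at 0.118 RPKM for Sfmbt2, 0.146 RPKM for Gab1, 0.154 RPKM for Smoc1, 0.235 RPKM for Slc38a4 and 0.519 RPKM for Jade1. Jade1 was then the only one of the 5 above the autosomal mean, which was 0.387 RPKM in knockout. The order of the loci was the same in both pools except that Gab1 and Smoc1 changed places. Widened counting intervals of neighbours in that order overlapped in control for Sfmbt2 (0.0272 to 0.0406 RPKM) and Smoc1 (0.0389 to 0.0572 RPKM), and for Gab1 (0.0735 to 0.101 RPKM) and Slc38a4 (0.0740 to 0.112 RPKM). In knockout they overlapped for Sfmbt2 (0.101 to 0.138 RPKM), Gab1 (0.122 to 0.175 RPKM) and Smoc1 (0.132 to 0.180 RPKM). Jade1 stood above the other 4 in both pools.

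The knockout over control ratio was 3.56 for Sfmbt2, 3.27 for Smoc1, 2.59 for Slc38a4, 1.80 for Jade1 and 1.70 for Gab1. Thus 5 of 5 loci were higher in knockout, where 53.6% of autosomal tiles of 245 kb, 53.7% of 185 kb and 53.3% of both 145 and 85 kb were. A ratio of at least 2 was reached by 3 of 5 loci, where 10.4% of 245 kb tiles, 11.4% of 185 kb tiles, 12.4% of 145 kb tiles and 14.3% of 85 kb tiles reached it. These shares are of tiles of every control level. Ratios above 1 were more common among the poorest tiles, as described further below. Taken as a ratio of the share of 100 bp bins with reads, Sfmbt2 alone stayed above 2, at 2.49, with Smoc1 at 1.98 and Slc38a4 at 1.86. With the medians of autosomal windows set equal, which multiplies every knockout value by 1.28, all 5 reached 2. The shares of autosomal tiles that reach 2 in these 2 settings were not computed, and the shares above do not apply to them. Over the whole tracks, 11679676 bins held reads in control and 8718653 in knockout. None of the 5 was at or below a ratio of 0.5, reached by 9.84% of 245 kb tiles, 10.8% of 185 kb tiles, 11.4% of 145 kb tiles and 12.8% of 85 kb tiles. The median ratio of the 5 loci was 2.59, and the median of autosomal tiles lay between 1.05 and 1.06. RPKM values are relative to library size, so these are relative levels and not amounts of H3K27ac per oocyte.

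**Figure D1:**
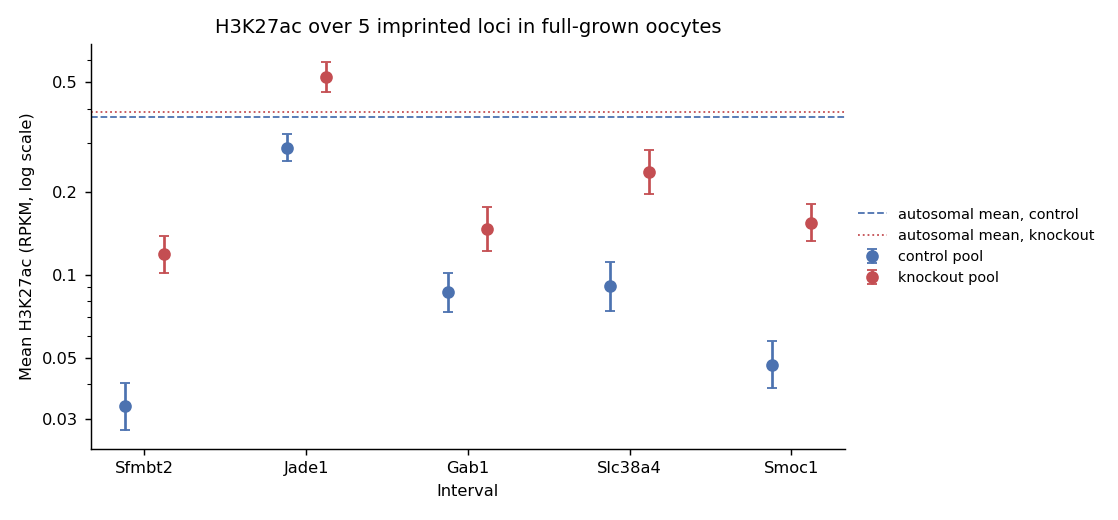
Mean H3K27ac in RPKM (log scale) over the interval of each locus in the control pool (blue) and the knockout pool (red); bars are 95% counting intervals widened for uneven reads, and lines are the autosomal means of 0.374 RPKM in control and 0.387 RPKM in knockout. Every locus is higher in knockout, and Jade1 alone passes the autosomal mean, at 0.519 RPKM.

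These ratios rest on few reads at the poorest loci. Of 30694806 reads in the control pool, 1892 fell in the 5 intervals, and of 29367645 reads in the knockout pool, 4194. Reads were also clustered. Within 5 kb windows of the intervals, the variance of counts per kb was 2.59 times their mean in control and 5.28 times in knockout. Differences between windows are not part of these factors. The 95% intervals below are widened by these factors. They hold counting error only, without differences between animals or libraries. The ratios of Sfmbt2 and Smoc1 differed by a factor of 1.09 (0.764 to 1.55), those of Smoc1 and Slc38a4 by 1.26 (0.871 to 1.83) and those of Jade1 and Gab1 by 1.06 (0.789 to 1.42), so none of these neighbours in the order were separated. Slc38a4 over Jade1 was 1.44 (1.04 to 1.99). The ratio of Sfmbt2 was 1.98 times that of Jade1 (1.46 to 2.68) and 2.10 times that of Gab1 (1.48 to 2.98). Both intervals lay above 1, but these pairs were taken from the ends of the order after sorting. The intervals were not corrected for that choice.

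The members encoding chromatin proteins were at opposite ends of the level scale. Sfmbt2 encodes a Polycomb group protein with MBT repeats and, in rodents, carries a large cluster of microRNA genes in an intron. RefSeq lists 72 microRNA genes inside it. Its interval, chromosome 2 from 10280001 to 10525000 (mm9, as are all track positions), held 250 reads in control and 851 in knockout, a ratio of 3.56 (2.76 to 4.58). The level was 8.89% of the autosomal mean in control and 30.6% in knockout, so the locus stayed poor in both pools. The share of 100 bp bins with at least 1 read was 6.69% in control and 16.7% in knockout, a smaller difference than that of the means.

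The higher signal at Sfmbt2 was spread along the locus. Of 49 windows of 5 kb, 45 were higher in knockout, 3 were lower and 1 had no read in either pool. The gene is on the plus strand, so its start lies towards the low-coordinate end. The first 160 kb, from 10280001 to 10440000, were higher in knockout in every window, with means of 0.0334 RPKM and 0.140 RPKM in control and knockout. Within this run the windows starting at 10405001 and 10410001, chosen after their values were seen, had 0 control reads and 1 knockout read each. When the interval was divided into 5 equal parts of 49 kb, the ratios in order of coordinate were 4.28, 3.45, 6.03, 2.98 and 2.26. The intervals of these 5 ratios overlapped one another, and the widest was that of the part with a ratio of 6.03 (3.08 to 11.8), which had 30 control reads. The richest kb in knockout, from 10365001 to 10366000, had 10 control and 23 knockout reads. The richest kb in control, from 10444001 to 10445000, had 13 control reads and 1 knockout read. The fullest bin of 100 bp held 5.20% of the control reads and 2.47% of the knockout reads of the locus. Of 245 kb, 140 had no control read, 59 no knockout read and 45 neither.

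Jade1 encodes a PHD finger protein that serves as a scaffold of the HBO1 histone acetyltransferase complex. Its interval, chromosome 3 from 41345001 to 41430000, had the highest level of the 5 in both pools, with 753 control and 1295 knockout reads and a ratio of 1.80 (1.52 to 2.13). Chromosome 3 as a whole went the other way, with a ratio of 0.901. The locus reached 77.2% of the autosomal mean in control and 134% in knockout.

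Jade1 was uneven along its length. In 5 equal parts of 17 kb, the control levels in order of coordinate were 0.0824, 0.0863, 0.169, 0.541 and 0.565 RPKM, and the knockout levels 0.180, 0.375, 0.375, 0.793 and 0.872 RPKM. Both pools were thus poor at the end towards the start of this plus-strand gene and rich at the other end, which faces the neighbouring gene Sclt1. The ratio was 4.34 (2.45 to 7.71) in the second part and 1.47 (1.09 to 1.97) in the fourth. The part with the highest ratio was therefore a poor one. Of 17 windows, 15 were higher in knockout, and the longest such run covered 50 kb from 41360001 to 41410000, at 0.227 RPKM and 0.480 RPKM in control and knockout. The richest kb in knockout lay from 41422001 to 41423000, with 28 control and 73 knockout reads.

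Gab1 encodes a docking protein that relays signals from receptor tyrosine kinases and is needed in the placenta. Its interval, chromosome 8 from 83275001 to 83420000, held 384 control and 623 knockout reads, a ratio of 1.70 (1.33 to 2.16), the smallest of the 5. Chromosome 8 as a whole had a ratio of 1.11. The first window, next to the flank on the side of the neighbouring gene Smarca5, was the richest in control with 49 reads against 27 in knockout. It was 1 of 6 windows of 29 that were lower in knockout. The 5 equal parts of 29 kb had ratios of 1.18, 1.40, 2.11, 2.26 and 1.78 in order of coordinate. Only the last 3, towards the start of this minus-strand gene, had intervals above 1, the lowest of them 1.06 to 2.99. The intervals of all 5 parts overlapped one another, so their ratios were not separated. The control level varied little between the parts, from 0.0708 to 0.106 RPKM.

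Slc38a4 encodes a transporter of neutral amino acids that is active in the placenta. Its interval, chromosome 15 from 96815001 to 96900000, held 237 control and 587 knockout reads, a ratio of 2.59 (1.96 to 3.41). About the same share of reads, 47.7% in control and 50.3% in knockout, lay in the last 17 kb, towards the start of this minus-strand gene. The richest kb of both pools was the last of the interval, from 96899001 to 96900000, with 28 control and 67 knockout reads. The ratio of this last part was 2.73 (1.84 to 4.05). The adjoining part, from 51 to 68 kb of the interval, had 33 control and 149 knockout reads, a ratio of 4.72 (2.44 to 9.14), and the intervals of these ratios overlapped. The parts from 17 to 34 kb and from 34 to 51 kb had ratios of 1.19 (0.447 to 3.16) and 1.35 (0.633 to 2.87), so at this depth no difference was detectable there. The windows over the 35 kb from 96865001 to 96900000, were all higher in knockout, with means of 0.136 RPKM and 0.433 RPKM in control and knockout. Within them the window at 75 kb, chosen after its values were seen, had 5 control and 74 knockout reads. With the interval lengthened by 10 kb at both ends the ratio was 1.90.

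Smoc1 encodes a secreted calcium-binding matrix protein. Its interval, chromosome 12 from 82115001 to 82300000, held 268 control and 838 knockout reads, a ratio of 3.27 (2.55 to 4.19), while chromosome 12 as a whole had a ratio of 1.00. Of 37 windows, 32 were higher in knockout, and the first 100 kb, from 82115001 to 82215000, were higher in each window, at 0.0459 RPKM and 0.191 RPKM in control and knockout. The 5 equal parts of 37 kb had ratios of 3.90, 4.93, 3.19, 3.52 and 1.66, and the last of these had an interval that included 1 (0.887 to 3.10). The intervals of all 5 parts overlapped one another. The richest kb was the same in both pools, from 82191001 to 82192000, with 16 control and 24 knockout reads, and another kb also had 24 knockout reads. Of the alternate 1 kb blocks of the interval, the first set gave a ratio of 2.62 and the second 4.12, both inside the widened interval of the whole locus.

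**Figure D2:**
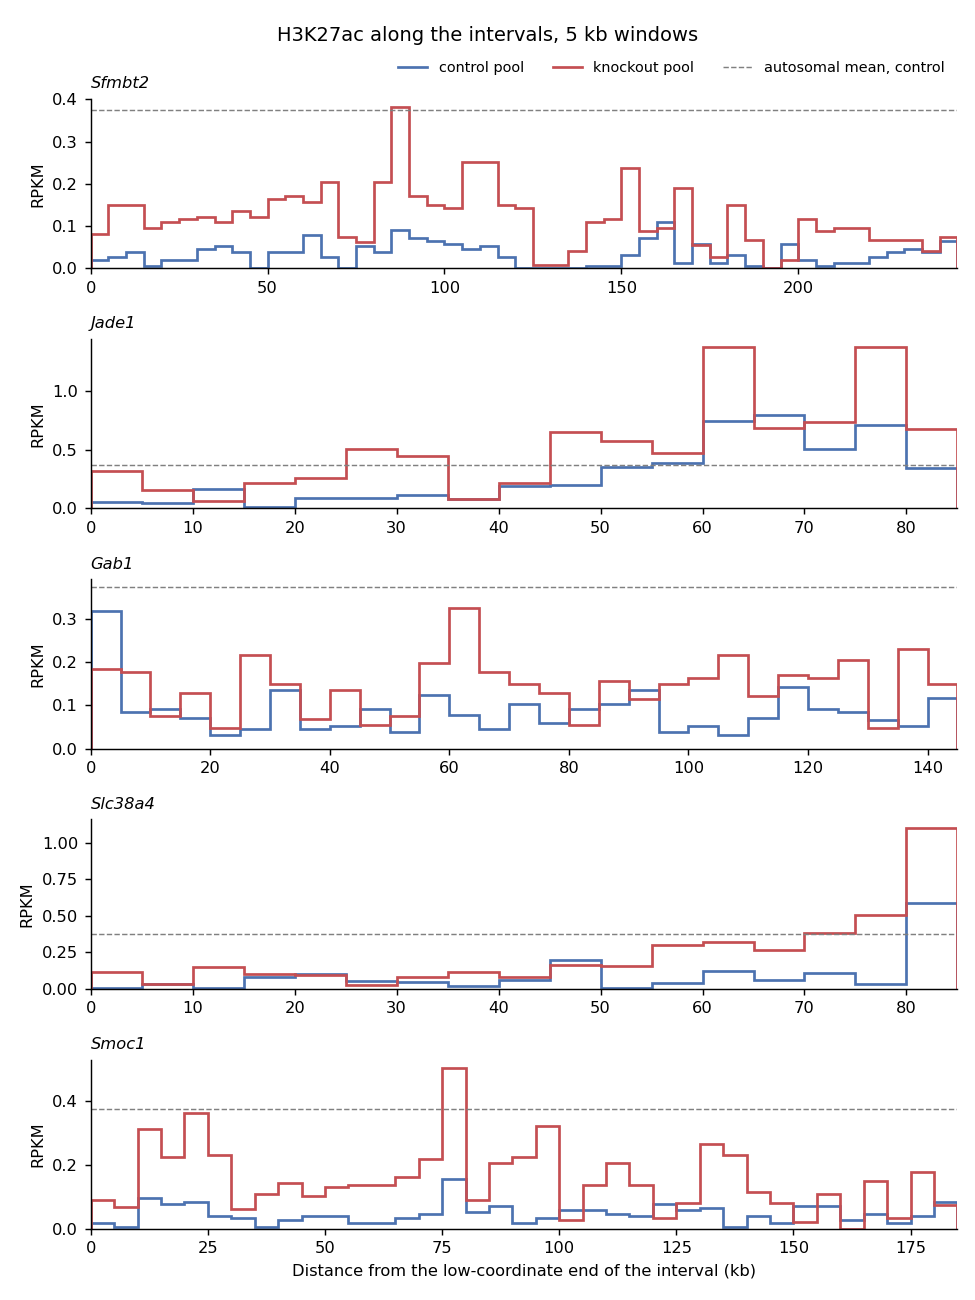
H3K27ac in RPKM along each interval in windows of 5 kb, in the control pool (blue) and the knockout pool (red), with distance in kb from the low-coordinate end; the dashed line is the autosomal control mean of 0.374 RPKM and the vertical scales differ. The knockout line is above the control line in 129 of 149 windows, and strong windows are seen at the high-coordinate ends of Jade1 and Slc38a4.

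Over all 5 loci, 129 of 149 windows of 5 kb (86.6%) were higher in knockout, against 50% of all 494453 autosomal windows, empty ones included. The share among autosomal windows as poor as those of the loci was not computed. The median log2 ratio of RPKM + 0.1 was 0.72 over the 149 windows and 0.04 over the 473454 autosomal windows with reads. Few of these windows were rich enough to be compared under the usual filter. Only 9 had an average of both pools that reached the mean of all windows, 0.379 RPKM, of which 8 belonged to Jade1 and 1 to Slc38a4. Among these 9, 1 was at least 2-fold higher in knockout, against 12.2% of such autosomal windows, and 0 were 2-fold lower, against 13.4%. The 1 called window was in Jade1, from 41390001 to 41395000, with 31 control and 96 knockout reads and a log2 ratio of 1.32. The lowest of the 9 was also in Jade1, from 41410001 to 41415000, with 123 and 101 reads and a log2 ratio of -0.19. The window of Slc38a4 from 96895001 to 96900000 had 90 and 162 reads and a log2 ratio of 0.81.

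Without the filter 36 of 149 windows were at least 2-fold higher, against 9.02% of all autosomal windows, and 0 were 2-fold lower, against 11.6%. They were 10 of 49 in Sfmbt2, 10 of 37 in Smoc1, 7 of 17 in Slc38a4, 5 of 17 in Jade1 and 4 of 29 in Gab1. Nearly all of the 36 were poor: 35 came from the 140 windows below the genome-wide mean, where 6.79% of autosomal windows were 2-fold higher. Windows above the autosomal mean of their own pool numbered 6 of 149 in control, against 43.2% of autosomal windows, and 13 of 149 in knockout, against 35.5%. Windows with 3 times their pool's mean or more, called rich here, numbered 0 of 149 in control and 2 of 149 in knockout. Both were in Jade1. Autosomal windows of that kind made up 1.70% in control and 6.21% in knockout.

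The profile along a locus was most alike in both pools at Jade1, the richest of the 5. Between the pools, Pearson's correlation of log2(RPKM + 0.1) over 5 kb windows was 0.76 for Jade1 (17 windows) and 0.60 for Slc38a4 (17 windows). It was 0.37 for Sfmbt2 (49 windows), 0.32 for Smoc1 (37 windows) and 0.15 for Gab1 (29 windows). Spearman's rho was 0.80, 0.29, 0.32, 0.20 and 0.07 in the same order. These windows share libraries and loci, are not replicates, and hold few reads in every locus but Jade1.

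Poor regions of the autosomes were higher in knockout in general, and the 5 loci have to be read beside that. Autosomal tiles of the length of each interval were sorted into 10 classes of equal size by control level. In the poorest class the median ratio was 2.34 for 245 kb tiles, 2.43 for 185 kb tiles, 2.48 for 145 kb tiles and 2.53 for 85 kb tiles, and in the richest class it was between 0.731 and 0.740. The control level sets the class and is also the denominator of the ratio, so both share its counting error. Sfmbt2 and Smoc1 belonged to the poorest class, Gab1 and Slc38a4 to the second and Jade1 to the fourth.

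Each of the 5 loci was above the median of its class and below the 95th percentile. The ratio of Slc38a4 was above that of 89.4% of its class, in which the median was 1.38 and the 5th and 95th percentiles were 0.652 and 3.09. Jade1 was above 86.4% of its class (median 0.983) and Sfmbt2 above 79.7% (median 2.34). Smoc1 was above 73.2% of its class (median 2.43) and Gab1 above 71.4% (median 1.28). At 0.0863 RPKM in control, Gab1 lay close to the lower edge of its class, 0.0845 RPKM. In the class below, the median ratio was 2.48, above the 1.70 of Gab1. Its rank therefore depends on where the classes were cut. Ratios of at least 2 were common among the poorest tiles, at 61.8% of the class of Sfmbt2 and 63.7% of that of Smoc1, against 23.4% in the class of Slc38a4, 17.6% in that of Gab1 and 9.16% in that of Jade1. The poorest class was wide: for 245 kb tiles it reached up to 0.108 RPKM in control, against 0.0332 RPKM for Sfmbt2, so its tiles were not all as poor as the locus.

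Ranks within each pool do not depend on how the pools are scaled to each other. Sfmbt2 was richer than 2.21% of autosomal tiles of its length in control and than 7.39% in knockout. Smoc1 went from 4.40% to 15.8%, Gab1 from 10.2% to 15.4%, Slc38a4 from 12.5% to 35.7% and Jade1 from 33.9% to 71.6%. All 5 ranked higher in the knockout pool, Jade1 and Slc38a4 by the most. The share of autosomal tiles of like starting rank that also rose was not computed. A locus of low rank has little room to fall, and poor tiles were higher in knockout in general.

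**Figure D3:**
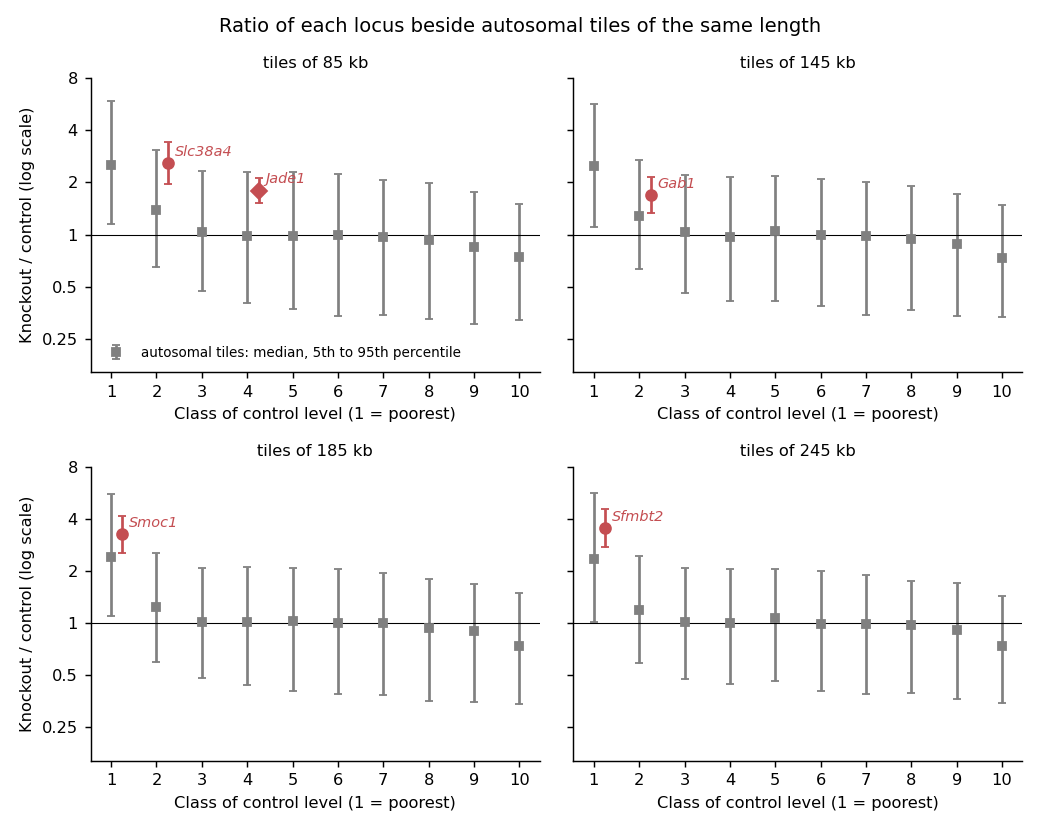
Knockout over control ratio (log scale) of autosomal tiles against their class of control level, from 1 for the poorest to 10 for the richest, for tiles of 85, 145, 185 and 245 kb; grey squares are medians with bars from the 5th to the 95th percentile, and red points are the loci of that length with widened 95% counting intervals. Ratios are highest in class 1, and each locus lies between the median and the 95th percentile of its class.

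The higher signal was not confined to the intervals. Of the 10 flanking regions of 100 kb, 9 were higher in knockout and 5 at least 2-fold higher, where 53.3% and 14.3% of autosomal tiles of 85 kb, the nearest length measured, were. Next to Sfmbt2 the ratio was 2.63 (1.98 to 3.48) on the low-coordinate side, towards Itih5, and 1.83 (1.37 to 2.42) on the other, towards Prkcq. Both were below the ratio of 3.56 of the locus, and the interval of the high side did not overlap that of the locus. Next to Slc38a4 the ratios were 2.58 and 1.68, with intervals that overlapped that of the locus. Over 500 kb on its low-coordinate side the ratio was 3.40 (2.94 to 3.93), above the 2.59 of the locus with overlapping intervals. Next to Gab1 they were 1.49 (1.25 to 1.78) and 2.39 (1.86 to 3.07), the latter above the 1.70 of the locus with overlapping intervals.

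Smoc1, Jade1 and Gab1 each lay beside a richer region, which for Gab1 was the low-coordinate side, at 0.248 RPKM in control. On the low-coordinate side of Smoc1, towards Slc10a1, the 100 kb had 0.299 and 0.384 RPKM in control and knockout, a ratio of 1.28 (1.08 to 1.52), whereas the poor high side had a ratio of 2.51 (1.75 to 3.60). On the high-coordinate side of Jade1, towards Sclt1, the levels were 0.740 and 0.687 RPKM, a ratio of 0.929 (0.824 to 1.05). The poor low side had 0.0482 and 0.123 RPKM, a ratio of 2.56 (1.80 to 3.63). At all 5 loci the 100 kb flank that was poorer in control had the higher ratio of the pair. The intervals of the pair overlapped at Sfmbt2 (1.98 to 3.48 and 1.37 to 2.42) and at Slc38a4 (1.82 to 3.68 and 1.33 to 2.12). They did not overlap at Gab1, Jade1 and Smoc1. The control level picks the poorer flank and is also the denominator of the ratio, so both share its counting error. How often this held for other pairs of autosomal regions was not computed.

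**Figure D4:**
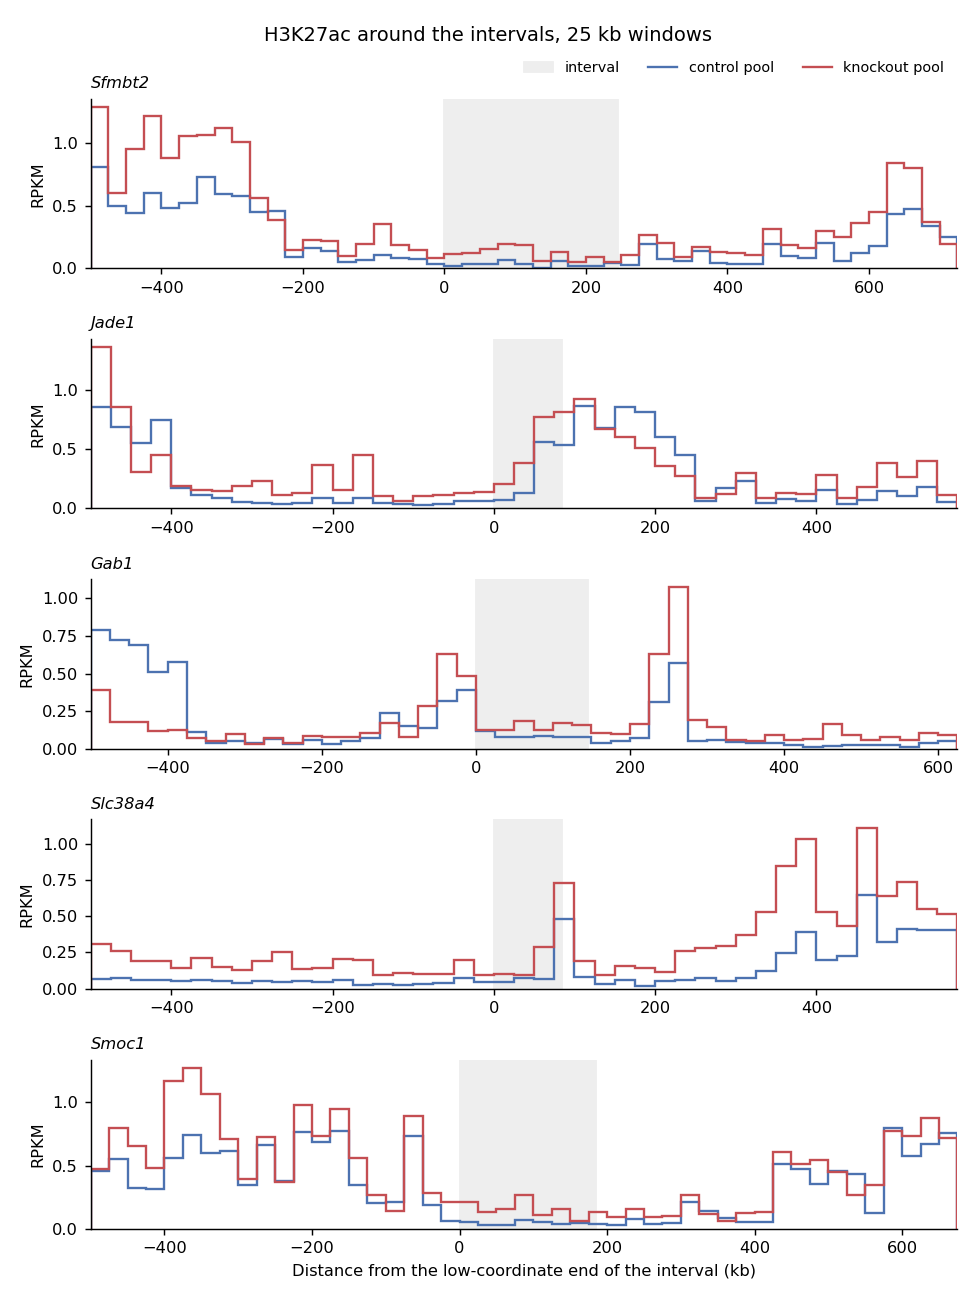
H3K27ac in RPKM in windows of 25 kb from 500 kb before to 500 kb after each interval (grey), in the control pool (blue) and the knockout pool (red); vertical scales differ. The intervals of Sfmbt2 and Smoc1 lie in poor stretches in both pools, and the rich region on the high-coordinate side of Jade1, at 0.740 RPKM in control and 0.687 RPKM in knockout over 100 kb, begins within its interval.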

How the data were processed

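The 2 deposited tracks, 1 per genotype, were used, each the pool of 2 replicates per the labels and made by the authors as RPKM per 100 bp bin with empty bins left out. The unit was inferred from the deposited values. The submitters' processing notes name mm9 and Bowtie2 2.2.2. Whether duplicates were removed, reads extended or an input subtracted is not given in the sources used. All values were whole multiples of the value of 1 read, 0.326 RPKM in control and 0.341 RPKM in knockout, within 0.01 RPKM, and counts were taken from these. Ratios of intervals used no pseudocount. Windows of 5 kb were compared as log2(RPKM + 0.1), which understates changes of low windows. Tiles with under 50 reads over both pools were left out. Intervals on ratios of counts are exact binomial (Clopper-Pearson) or widened, at 95%, and cover counting error only.

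Members and lists were chosen with earlier results of these data known. By rule the text names the highest and lowest window past the filter, the richest kb of each pool and the longest run of windows in 1 direction. The division of loci into 5 parts, the classes of tiles and the widened intervals were chosen after the data were seen. In simulated data of 494453 autosomal windows, changed windows were placed only among those past the filter. The 2-fold rule called 7.50%, 80.0% and 88.5% of them at folds of 1.5, 3 and 4. These shares do not apply to the 140 member windows below the filter, which the filtered rule cannot call. Python 3.11.15 was used, with SciPy 1.17.1, pandas 2.3.3, matplotlib 3.10.9 for figures and NumPy 2.4.6.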

Additional observations from a re-analysis of the deposited data

How the results depend on the processing

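No paired analysis was possible because each track pools both replicates, and for the same reason no replicate could be left out. All 40 alternative values of the 5 interval ratios were above 1, and 27 lay within the binomial interval of the main value. With the medians of autosomal windows set equal, which multiplies every knockout value by 1.28 (0.36 on the log2 scale), the ratios were 4.57 for Sfmbt2, 4.20 for Smoc1, 3.33 for Slc38a4, 2.31 for Jade1 and 2.18 for Gab1, so that all 5 reached 2. As a ratio of the share of bins with reads they were 2.49, 1.98, 1.86, 1.23 and 1.25, with Sfmbt2 alone above 2, a summary that counts a bin once however many reads it holds. For these 2 settings the shares of autosomal tiles at 2 or more were not computed, and fewer bins held reads in the knockout track as a whole. Slc38a4 was at 1.90 when lengthened by 10 kb, and Smoc1 at 2.62 and 4.12 on alternate 1 kb blocks; the cause was not tested. The 1 window called higher became 0 with a pseudocount of 0.5, a filter at 2 times the mean or windows of 10 kb, 5 at 1.5-fold or with equal medians, 8 in windows of 2 kb and 36 without a filter, which tests more windows. No setting called a window lower. Rich windows were 1 in control at 2 times the mean and 0 in knockout at 5 times. All 5 loci stayed above the median of their class with classes of the mean of both pools (69.5% to 93.8% of the class lower) and with tiles shifted so that each new tile straddles 2 old ones (70.4% to 89.2%), both chosen after seeing the data. Depth limits Sfmbt2, Slc38a4 and Smoc1 most, with 237 to 268 control reads each.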

Other observations

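Regions near Jade1 and Gab1, noted after their values were seen, went against the higher knockout signal of the loci themselves. On the high-coordinate side of Jade1, the 4 windows of 25 kb that start 150 to 225 kb after the low-coordinate end of its interval had 0.854, 0.819, 0.605 and 0.452 RPKM in control and 0.604, 0.510, 0.362 and 0.278 RPKM in knockout, while inside the interval knockout was higher. On the low-coordinate side of Gab1, the 500 kb had a ratio of 0.660 (0.595 to 0.732), whereas the 500 kb on its other side had a ratio of 2.26 (1.99 to 2.57). The lower knockout signal on the low-coordinate side lay mostly far from the gene: the 5 windows of 25 kb that start 500 to 400 kb before the interval lay between 0.510 and 0.787 RPKM in control, and between 0.116 and 0.392 RPKM in knockout.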
